A study of Mus musculus with 6 samples.

Results

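The genes of cholesterol and fatty acid synthesis were followed in liver CD8+ T cells of TGC3 and TG mice, obtained by sorting. The group holds 34 genes named by pathway membership and not by how they behaved: 18 of the sterol branch, 11 of the fatty acid branch and 5 regulators. All 34 were on the array, with 67 probes whose gene name equals a member, among 41174 distinct probes. After the filter on dim probes, 33 of them were tested among 16416 genes. Scd1, a stearoyl-CoA desaturase, had 1 probe, which was well above background on 0 of 6 arrays.

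TGC3 mice carry dnTGFβRII, a dominant negative TGF-beta receptor II, and lack the chemokine receptor CXCR3 (CXCR3-/-). TG mice carry dnTGFβRII alone, so that both groups share this transgene and neither is wild type. All mice were female, on a C57BL/6 background and 13 to 14 weeks old. There were 3 TGC3 and 3 TG samples, each on a one-colour array, named here TGC3 1 to TGC3 3 and TG 1 to TG 3. The labels give neither the transgene's promoter, the deleted part of Cxcr3 nor the number of mice behind an array, and the p-values cover no more than the spread among the 3 arrays of a group, which may be technical. The study set out to learn what CXCR3 does in the activation and proliferation of these cells. The TGC3 arrays shared 1 slide and scan and the TG arrays another, and for every difference given here genotype and slide cannot be told apart.

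Cholesterol is made from acetyl-CoA through mevalonate, farnesyl diphosphate, squalene and lanosterol, and fatty acids are made from the same acetyl-CoA by carboxylation, chain building, elongation and desaturation. The transcription factors SREBP-1 and SREBP-2 switch on the genes of both branches. SCAP carries them from the endoplasmic reticulum to the Golgi, where they are cut and set free, and INSIG proteins hold SCAP back when sterols are plentiful. T cells that divide need new membrane, and both branches are known to be induced when naive T cells are activated.

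The promoters of the 3 members past the test's threshold (Mvd, Tm7sf2 and Elovl6), together with that of Hmgcs1, are shown because SREBPs and their partner factors act at such sequences. Each run gives the 150 bases before the gene's start in RefSeq annotation of GRCm38.p6, 5′ to 3′ on the gene's own strand. Capitals mark matches on either strand to TCACNCCAC (a sequence like the sterol regulatory element), CACGTG (an E-box), CCAAT or GGGCGG (a GC box), so that ATTGG and CCGCCC are matches on the other strand. Hmgcs1 lies at chr13:119690201-119690350 on the plus strand, Mvd at chr8:122443423-122443572 on the minus strand, Tm7sf2 at chr19:6067851-6068000 on the minus strand and Elovl6 at chr3:129532236-129532385 on the plus strand.
Hmgcs1: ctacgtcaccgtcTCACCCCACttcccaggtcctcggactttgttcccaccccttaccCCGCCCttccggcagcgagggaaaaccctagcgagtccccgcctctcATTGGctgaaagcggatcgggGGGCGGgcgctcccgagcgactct
Mvd: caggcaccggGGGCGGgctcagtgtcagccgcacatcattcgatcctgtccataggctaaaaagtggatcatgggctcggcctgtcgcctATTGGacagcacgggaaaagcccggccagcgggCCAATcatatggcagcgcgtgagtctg
Tm7sf2: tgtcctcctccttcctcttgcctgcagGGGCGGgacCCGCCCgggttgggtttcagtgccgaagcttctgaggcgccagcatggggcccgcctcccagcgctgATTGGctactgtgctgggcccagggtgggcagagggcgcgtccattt
Elovl6: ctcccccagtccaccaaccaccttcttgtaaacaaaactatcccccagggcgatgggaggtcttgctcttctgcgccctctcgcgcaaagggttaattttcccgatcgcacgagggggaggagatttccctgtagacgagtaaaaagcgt

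RefSeq promoter windows were found for 27 of the 34 members (14 sterol, 8 fatty acid and 5 regulator genes), some with several starts, 36 windows in all. In the 250 bases before the start, CCAAT was matched in 22 of the 36 member windows (61.1%), against 33.8% of 32851 windows of all genes. Counted by gene, at least 1 window held it in 13 of 14 sterol genes, 4 of 8 fatty acid genes and 4 of 5 regulators. GGGCGG was matched in 26 of the 36 member windows (72.2%), against 32.7% of all windows, and again in 13 of 14 sterol genes and 4 of 8 fatty acid genes. CACGTG was matched in 6 of the 36 (16.7%), against 6.02% of all windows. TCACNCCAC was matched in 1 member window, that of Hmgcs1, 137 to 129 bases before its start, while 1.05% of all windows held it. In the window of Elovl6 none of these motifs was matched. A match is a description of the letters and not a site shown to be used.

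Across the whole pathway no tested member was called higher in TGC3 and 3 of 33 were called lower: Mvd and Tm7sf2 of the sterol branch and Elovl6 of the fatty acid branch. The share called lower, 9.09%, was near the background, since 26.1% of all genes tested were called, 9.44% lower in TGC3 and 16.6% higher (limma, Benjamini-Hochberg adjusted p under 0.05 over 16416 genes). Leaving out TGC3 1, TGC3 2 or TGC3 3 gave 2, 4 and 2 members lower, and leaving out TG 1, TG 2 or TG 3 gave 1, 1 and 2. Most members had small changes of 1 sign. The change, here always the log2 value of TGC3 minus TG, was below 0 for 28 of the 33, with a median of -0.12 against -0.01 for all genes. Over the other scalings the number below 0 ran between 24 with cyclic loess and 30 with centring on the median. With a normexp background correction on the spot backgrounds as deposited, 7 of them aberrant on TG 3, 0 members were called in limma. The branch medians were 0.08 (sterol), 0.17 (fatty acid) and 0.25 (regulators). In that fit 506 of 16416 genes had an unadjusted limma p under 0.05, against 6576 in the fit reported here. With the aberrant backgrounds replaced by the array's median, Mvd, Tm7sf2 and Elovl6 were again called lower and Nsdhl was called higher. There 27 of the 33 changes were below 0, with a median of -0.108 against -0.022 for all genes. All 3 TGC3 values lay below all 3 TG values for 13 members (39.4%), against 22.4% of all genes, and above them for 1 member, Nsdhl, against 24.3% of all genes. The groups overlapped for the other 19, while they did not for 46.7% of all genes.

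**Figure D1:**
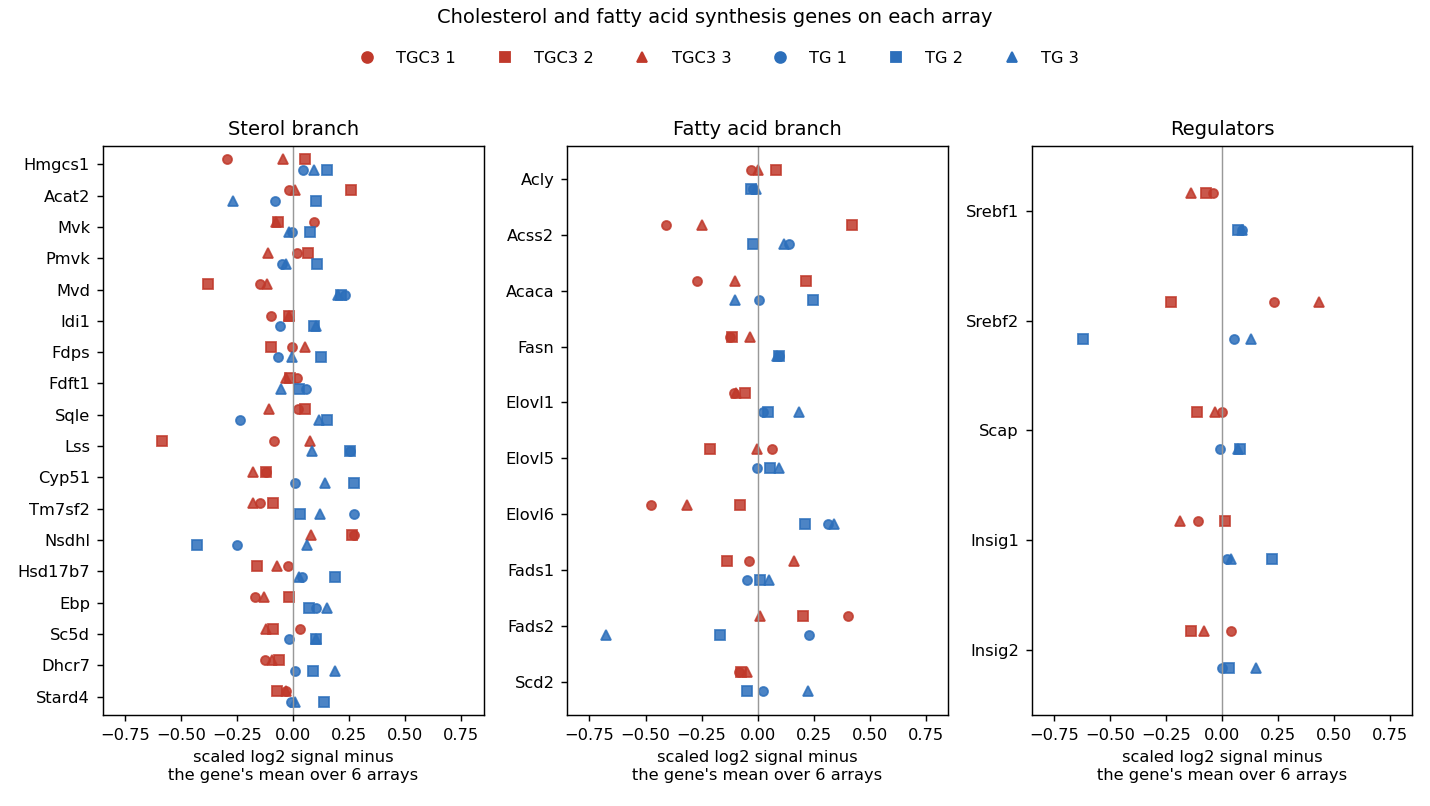
Scaled log2 signal of each tested member on each array, minus that gene's mean over the 6 arrays, with TGC3 arrays in red above TG arrays in blue, by branch. All TGC3 points lie left of all TG points for 13 members, among them Mvd, Tm7sf2 and Elovl6, against 22.4% of all genes. They lie on the right for Nsdhl, against 24.3% of all genes, and the groups of 19 members overlap.

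The trend of changes with signal and the choice of scaling are given beside this shift. Over all genes the median change was 0.33 in the dimmest decile and -0.085 in the brightest, and 25 of the 33 members were among the 8208 genes of higher signal. Among those 8208 the median of all genes was -0.07, 32.1% had all TGC3 values below all TG values and 11.9% were called lower. Of the 25 members there, 10 were separated downwards and 3 were called lower, with a median of -0.12. The scaling also set the count of calls. Centring each array on its median in place of its 75th percentile moved the median of all genes to -0.184 and the share of higher genes among all calls to 27.5%, against 63.8% as reported here. Under that centring 17 of the 33 members were called lower and 0 higher, beside 4763 lower and 1808 higher of all 16416 genes. The members' median of -0.29 lay as far below that of all genes as before.

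**Figure D2:**
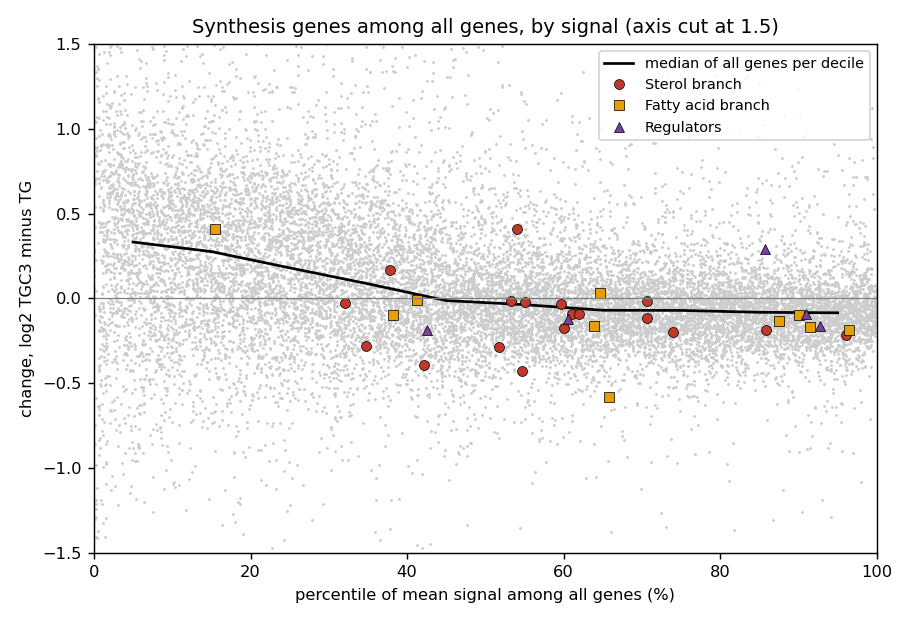
Change (log2 TGC3 minus TG) of every tested gene in grey against its percentile of mean signal, with members coloured by branch and the median of all genes per decile as a black line. The line falls from 0.33 at the dim end to -0.085 at the bright end, and most members lie at or a little below it.

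The first steps of the sterol branch lead from acetyl-CoA to mevalonate and on to isopentenyl diphosphate. Mvd, mevalonate diphosphate decarboxylase, was the clearest of them (NM_138656, probe at mm9 chromosome 8, 124957750 to 124957809). Its scaled log2 signal was 0.11, -0.12 and 0.14 in TGC3 1 to 3, against 0.49, 0.47 and 0.46 in TG 1 to 3. The groups did not overlap, TGC3 2 was lowest, and the TG values were close together. Mvd fell by 0.43 ± 0.08 on the log2 scale (± SE, limma, n = 3 arrays each), to 0.742 of the TG signal, with an adjusted p of 0.0163. The call was lost without TG 1 (limma, adjusted p = 0.0554) and without TG 2 (limma, adjusted p = 0.0547), while the change ran between -0.48 and -0.35 over the fits that left out 1 array.

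The other mevalonate genes did not pass the threshold. Hmgcs1, which makes HMG-CoA, had 1.64, 1.99 and 1.89 in TGC3 against 1.98, 2.09 and 2.03 in TG, with TGC3 2 just above TG 1. Its change was -0.20 ± 0.10 (limma, adjusted p = 0.2). Its other, dimmer probes gave -0.01 and -0.59 (limma over all probes, adjusted p = 0.973 and 0.407). The kinases Mvk and Pmvk, which phosphorylate mevalonate in turn, had changes of -0.03 and -0.02. Acat2, the cytosolic thiolase that joins acetyl-CoA units, had a change of 0.17 ± 0.12 that turned to -0.006 with centring on the median. Idi1, the isopentenyl diphosphate isomerase, and Fdps, the farnesyl diphosphate synthase, had changes of -0.09 and -0.03, and Fdps, Pmvk, Fdft1 and Sqle turned sign under at least 1 other scaling.

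Squalene is made by Fdft1 and oxidised by Sqle, and Lss closes it to lanosterol. Fdft1 had 0.15, 0.12 and 0.10 in TGC3 against 0.19, 0.16 and 0.08 in TG. Sqle had 0.31, 0.34 and 0.18 in TGC3 against 0.05, 0.44 and 0.40 in TG. In both the groups overlapped, with changes of -0.02 each. Lss had -1.11, -1.61 and -0.95 in TGC3 against -0.77, -0.77 and -0.94 in TG. TGC3 3 and TG 3 lay side by side, TGC3 2 was lowest by far, and the change of -0.39 ± 0.18 was not past the threshold (limma, adjusted p = 0.149).

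Lanosterol is turned into cholesterol by Cyp51, Tm7sf2, Nsdhl, Hsd17b7, Ebp, Sc5d and Dhcr7. Tm7sf2, a sterol C14 reductase (NM_028454, mm9 chromosome 19, 6062882 to 6062941), had -0.19, -0.13 and -0.22 in TGC3 against 0.23, -0.01 and 0.08 in TG. It fell by 0.28 ± 0.08 on the log2 scale (limma, adjusted p = 0.0451). This call rested on all 6 arrays, since it was lost when any 1 of them was left out, with limma adjusted p between 0.0563 and 0.12. TG 2 was the TG array nearest to TGC3.

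Cyp51, the lanosterol demethylase, lay beside the threshold. It had -1.96, -1.96 and -2.02 in TGC3 against -1.83, -1.57 and -1.70 in TG, a change of -0.28 ± 0.08 (limma, adjusted p = 0.0508). Its other probes gave -0.49 and -0.32, the last with an adjusted p of 0.0378 in limma over all probes. Cyp51 was called lower without TG 1 (limma, adjusted p = 0.0457), with a change of -0.35. Ebp, a sterol isomerase, had 4.85, 5.00 and 4.89 in TGC3 against 5.12, 5.09 and 5.17 in TG. The groups did not overlap, and its limma adjusted p of 0.0582 became 0.0393 without TGC3 2. Dhcr7, the last reductase, and Hsd17b7, a ketosteroid reductase, also had every TGC3 value below every TG value, with changes of -0.18 and -0.17 (limma, adjusted p = 0.1 and 0.139).

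Nsdhl, a dehydrogenase of the demethylation steps, was the member with all TGC3 values above all TG values. It had 0.47, 0.46 and 0.28 in TGC3 against -0.05, -0.23 and 0.26 in TG, a change of 0.41 ± 0.13 (limma, adjusted p = 0.0722). TG 3 lay just under the lowest TGC3 value, and without TG 3 the gene was called higher (change 0.54, limma, adjusted p = 0.028). Its 3 other probes gave 0.15, -0.21 and -0.11, the widest spread between probes of any member (0.62).

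Sc5d, a sterol desaturase, differed between its probes in size. The brighter probe had 1.68, 1.56 and 1.53 in TGC3 against 1.63, 1.75 and 1.75 in TG and a change of -0.12 (limma, adjusted p = 0.262). The second probe, assigned to the transcript AK080673, had -1.67, -2.01 and -1.79 in TGC3 against -1.1, -1.18 and -1.2 in TG. There the groups were well apart, with a change of -0.66 ± 0.10 (limma over all probes, adjusted p = 0.00753), the lowest of all 64 kept member probes. Stard4, a carrier of cholesterol between membranes, had a change of -0.09 with groups that did not overlap.

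Of the 18 sterol genes 2 were lower and 0 higher, beside 9.44% lower and 16.6% higher of all genes. For 16 the change was below 0, and the median was -0.11. Separate groups were found for 8 genes downwards and 1 upwards, beside 22.4% downwards and 24.3% upwards of all genes.

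**Figure D3:**
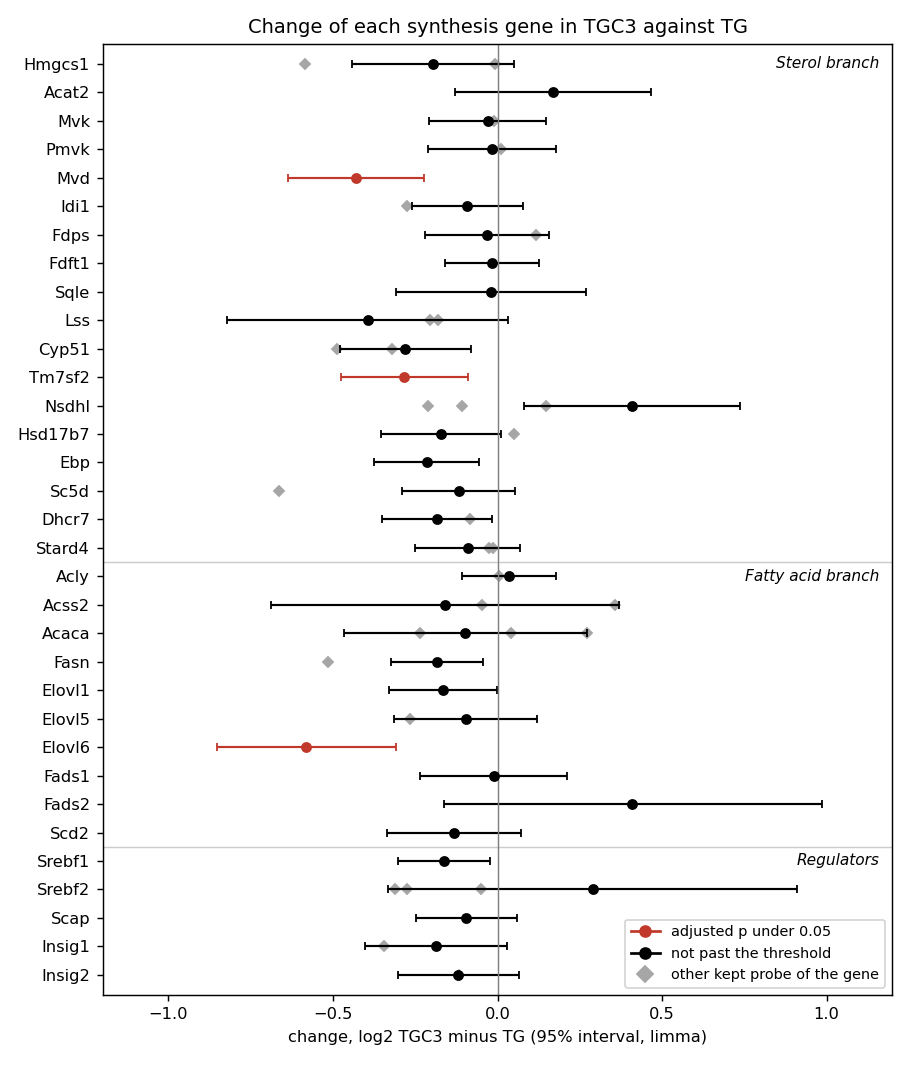
Change of each tested member in pathway order (log2 TGC3 minus TG, limma estimate with 95% interval), red where the adjusted p was under 0.05, with the gene's other kept probes as grey diamonds. Mvd, Tm7sf2 and Elovl6 are red and below 0. The probes of several members lie apart from one another, among them Hmgcs1, Nsdhl, Sc5d, Acss2, Acaca, Fasn and Srebf2.

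The fatty acid branch begins with the supply of cytosolic acetyl-CoA. Acly, ATP citrate lyase, which makes it from citrate, had 1.1, 1.21 and 1.13 in TGC3 against 1.11, 1.1 and 1.12 in TG, a change of 0.03 that became -0.141 with centring on the median. Acss2, which makes it from acetate, had 0.65, 1.48 and 0.81 in TGC3 against 1.2, 1.04 and 1.18 in TG. TGC3 2 stood above all other arrays here, and it did so on a second probe too, with -0.70 against -1.55 and -1.30 in the other TGC3 arrays and -1.08, -1.19 and -1.14 in TG. The change of Acss2 was -0.16 ± 0.22 over all arrays, and without TGC3 2 it was -0.41 (limma, adjusted p = 0.0306).

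Acaca, acetyl-CoA carboxylase, and Fasn, the fatty acid synthase, build palmitate. Acaca had -1.75, -1.26 and -1.58 in TGC3 against -1.47, -1.23 and -1.58 in TG, with overlap and a change of -0.10. Fasn had 5.09, 5.10 and 5.18 in TGC3 against 5.31, 5.31 and 5.30 in TG. All TGC3 values were lower, by 0.18 ± 0.06 on average (limma, adjusted p = 0.0615). A dimmer second probe of Fasn had -1.43, -1.40 and -1.60 in TGC3 against -1.04, -0.88 and -0.97 in TG, a change of -0.52 ± 0.08 (limma over all probes, adjusted p = 0.00952). With the mean of its probes Fasn was called lower (-0.35, limma, adjusted p = 0.00905).

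Elovl6, the elongase that takes palmitate to stearate (NM_130450, mm9 chromosome 3, 129341248 to 129341307), had the lowest change among the members. Its values were 0.75, 1.15 and 0.91 in TGC3 against 1.54, 1.44 and 1.57 in TG. The groups did not overlap, and TGC3 2 and TG 2 were the nearest arrays. Elovl6 fell by 0.58 ± 0.11 on the log2 scale, to 0.669 of the TG signal (limma, adjusted p = 0.0151). The call was lost without TG 1 (limma, adjusted p = 0.052), with a change of -0.57, and held without each other array.

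The other elongases and the desaturases did not pass the threshold. Elovl1, which extends very long saturated chains, had 3.86, 3.91 and 3.87 in TGC3 against 3.99, 4.01 and 4.15 in TG, with separate groups and a change of -0.17 (limma, adjusted p = 0.119). Elovl5, an elongase of polyunsaturated chains, had a change of -0.10 with overlap. Scd2, a stearoyl-CoA desaturase, had 3.27, 3.28 and 3.31 in TGC3 against 3.38, 3.31 and 3.58 in TG, and a change of -0.13. Fads1 and Fads2, desaturases of polyunsaturated chains, had changes of -0.01 and 0.41. Fads2 was dim, with -3.54, -3.74 and -3.93 in TGC3 against -3.71, -4.11 and -4.62 in TG, and overlapped (± 0.24, limma, adjusted p = 0.245). In all, 1 of 10 fatty acid genes was lower and 0 higher, beside 9.44% lower and 16.6% higher of all genes. For 8 the change was below 0, and the median was -0.12.

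Of the 5 regulators 0 passed the threshold. Srebf1, which encodes SREBP-1, had 4.12, 4.09 and 4.02 in TGC3 against 4.25, 4.23 and 4.25 in TG. The groups did not overlap, with a change of -0.16 ± 0.06 (limma, adjusted p = 0.0857). Srebf2, which encodes SREBP-2, gave different answers by probe. The brightest probe had 3.37, 2.91 and 3.57 in TGC3 against 3.19, 2.52 and 3.27 in TG, a change of 0.29 ± 0.25 with replicate 2 lowest in both groups. The other 3 probes gave -0.27, -0.31 and -0.05, of which the second had an adjusted p of 0.0475 in limma over all probes. Insig1, itself a target of SREBPs, had -1.08, -0.96 and -1.16 in TGC3 against -0.95, -0.75 and -0.93 in TG, with TGC3 2 and TG 1 side by side and a change of -0.19 (limma, adjusted p = 0.17). Scap and Insig2 had changes of -0.09 and -0.12 with overlap. The regulators' median was -0.12.

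At the level of probes, 6 of 64 kept member probes were lower (9.38%) and 0 higher, against 22.1% called, 8.36% lower and 13.7% higher, among 25125 probes. Of the 20 members with several kept probes, 13 had all changes of 1 sign and 7 did not (Pmvk, Fdps, Nsdhl, Hsd17b7, Acss2, Acaca and Srebf2). The called members Mvd, Tm7sf2 and Elovl6 each had 1 probe, so that no second probe checks their calls. For the 30 members not called, the 95% interval of the change lay within 1.5-fold in either direction for 25 and within 2-fold for all 30. The 5 with wider intervals were Lss, Nsdhl, Acss2, Fads2 and Srebf2.

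Of 7 sterol pathway genes outside the 34 that were tested, 3 were lower and 0 higher, with a median of -0.13. Of all genes, 9.44% were lower and 16.6% higher. Sc4mol, the current Msmo1, which demethylates sterols, had 1.80, 1.78 and 1.76 in TGC3 against 2.08, 2.14 and 2.02 in TG. The groups did not overlap, and Sc4mol fell by 0.30 ± 0.06 on the log2 scale (limma, adjusted p = 0.0171), a call that held in 2 of the 6 fits that left out an array.

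Genes of sterol uptake, efflux and storage gave 3 lower and 1 higher of 18, with a median of -0.11, beside 9.44% lower and 16.6% higher of all genes. Centring on the median gave 8 lower and 0 higher, beside 4763 lower of all 16416 genes. Mylip, a ubiquitin ligase induced by sterol-sensing nuclear receptors, rose by 0.32 ± 0.08 (limma, adjusted p = 0.0298). It had 3.68, 3.49 and 3.62 in TGC3 against 3.25, 3.22 and 3.36 in TG, and was called in 2 of 6 fits without 1 array. With centring on the median its change was 0.145 (limma, adjusted p = 0.28). Soat2, which esterifies cholesterol, and Npc2, which moves it out of lysosomes, fell by 0.30 and 0.27 (limma, adjusted p = 0.0388 and 0.0216), each called in 1 of 6 such fits.

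In the remaining lipid lists the counts of lower genes depended on the scaling. With centring on the median, 6 of 17 SREBP processing genes and 4 of 11 isoprenoid genes were lower. So were 10 of 23 fatty acid and lipid synthesis genes and 10 of 21 fatty acid oxidation genes. Of all 16416 genes, 4763 were lower with that centring and 1549 with the scaling used here. With the scaling used here the lists gave 1, 0, 1 and 1 lower, in the same order. They gave 0, 0, 2 and 0 with quantile normalization and 0, 0, 1 and 0 with cyclic loess. Of the 17 genes of SREBP processing and protein turnover in the sterol response, 1 was higher and 1 lower. The lower one was Sec24c, a coat protein of transport vesicles (-0.30), called in 1 of 6 fits without 1 array. Of 11 isoprenoid branch genes 0 were called in limma, with a median of -0.13. Among 23 other genes of fatty acid and lipid synthesis 3 were called higher and 1 called lower (median 0.02), beside 16.6% higher and 9.44% lower of all genes. Ptplad1 (now Hacd3), a dehydratase of elongation, fell by 0.41 ± 0.06 (limma, adjusted p = 0.00705). Scd3, which has near paralogs in Scd1 and Scd2, rose by 0.82 at low signal, while normexp with repaired backgrounds gave 0.17 and no call (limma, adjusted p = 0.0588). Dgat2, which makes triglycerides, rose by 0.47, called in 4 of 6 fits without 1 array but not with centring on the median (0.294, limma, adjusted p = 0.0653). Ptpla (now Hacd1) rose by 0.75, called in 1 of 6 such fits. Its probe was well above background on 3 of 3 TGC3 arrays and 1 of 3 TG arrays, and the call was lost with quantile normalization, cyclic loess, the deposited values and normexp with repaired backgrounds (0.154). Of 21 fatty acid oxidation genes 0 were higher and 1 lower, Acadvl (-0.25), called in 1 of 6 fits without 1 array.

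**Figure D4:**
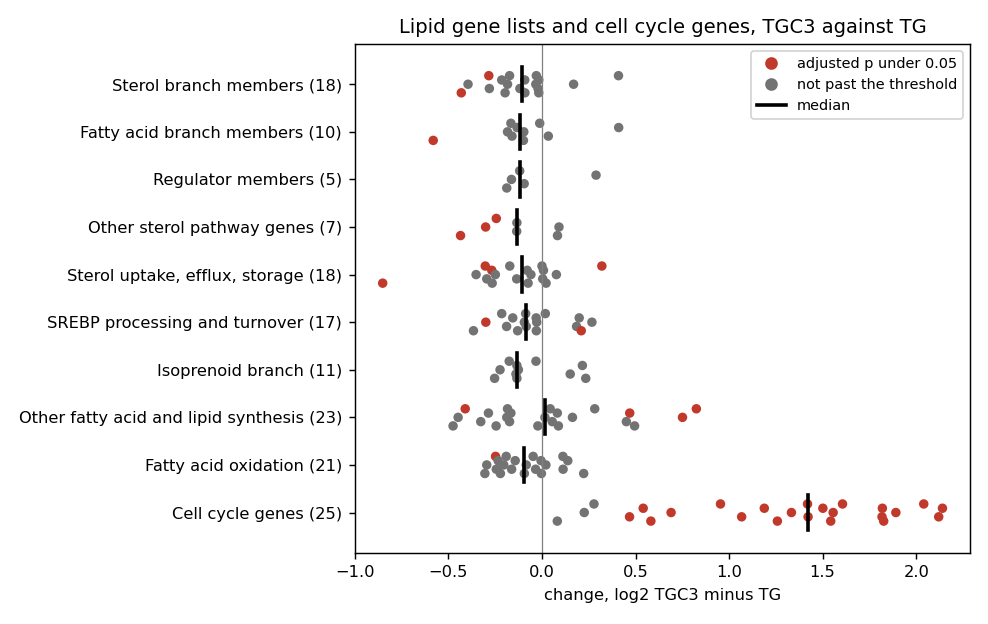
Change of each tested gene (log2 TGC3 minus TG) by list, with the number tested in brackets, red where the adjusted p was under 0.05 and a black bar at the median. The medians of the lipid lists lie between -0.13 and 0.02, and that of the cell cycle genes at 1.42.

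Cell cycle genes differed between the groups in the other direction. Of 25 tested, 22 were higher in TGC3 and 0 lower, with a median of 1.42, beside 16.6% higher and 9.44% lower of all genes. Cenpf, a kinetochore protein, rose by 2.14, Nusap1 by 2.12, Plk1 by 2.04 and Aurkb by 1.89. The list summed to 205 to 271 times the 75th percentile of an array in TGC3, highest on TGC3 2, and to 136 to 164 in TG. Mki67, a marker of cycling cells, rose by 1.07 ± 0.20 (limma, adjusted p = 0.0149), a call lost without TG 1 (limma, adjusted p = 0.0511) and without TG 2 (limma, adjusted p = 0.0523). No lipid list had a median above 0.02.

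The sorted cells carried the markers of their label. Cxcr3 had -4.64, -4.21 and -4.53 in TGC3 against 6.94, 6.85 and 6.89 in TG. Cd8a had 7.44, 7.27 and 7.33 in TGC3 against 7.63, 7.36 and 7.65 in TG, and Cd8b1 had 8.06, 8.2 and 8.02 against 8.27, 8.12 and 8.13, with overlap in both. Cd3e had 3.09, 3.08 and 3.02 in TGC3 against 3.35, 3.20 and 3.30 in TG, separate groups with a change of -0.22 (limma, adjusted p = 0.0519). With centring on the median, Cd8a, Cd8b1 and Cd3e were all called lower (limma, adjusted p = 0.0464, 0.0367 and 0.0128). All 7 CD8+ T cell markers tested had changes below 0, with a median of -0.20, and 2 were called lower (Cd3d and Cd3g). Of all genes 9.44% were called lower, and 11.8% in the brightest decile. Their sum was 665 to 720 in TGC3 and 729 to 818 in TG. With cyclic loess the changes of Cd8a, Cd8b1 and Cd3e were -0.097, 0.016 and -0.146. The median change of all genes in the brightest decile was -0.085. In these bulk samples fewer cells of a type, less RNA per cell and a difference between slides cannot be told apart.

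Markers of other liver cells differed between the groups for some cell types and not for others. Macrophage marker sums were higher in TGC3, while B cell and dendritic cell marker sums overlapped. Neutrophil marker sums were also higher in TGC3, but most genes in them passed the filter only through TGC3. The counts called are to be read beside 16.6% higher and 9.44% lower of all genes. In deciles 1, 2 and 3 of signal, the dimmest, 27.2%, 30.8% and 31.1% of all genes were called higher. The tested markers of these lists were mostly dim, with median signal percentiles between 8 (CD4+ T cell) and 36.1 (dendritic cell). Hepatocytes are rich in both pathways. Of 14 hepatocyte markers on the array 2 were tested, 1 of them called higher (Trf, 0.83, limma, adjusted p = 0.00172), and 7 were above background on no array (Apoa1, Apoc3, Ttr, Fgb, Fga, Cyp2e1 and Cps1), and the sum was 0.219 to 0.256 in TGC3 and 0.195 to 0.214 in TG. Neutrophil markers summed to 1.62 to 8.03 in TGC3, highest on TGC3 2, and to 0.110 to 0.173 in TG, with 2 of 4 tested called higher and Elane and Csf3r above background on no array. The 2 were S100a8, above background on 3 TGC3 and 0 TG arrays, and S100a9, on 3 TGC3 arrays and 1 TG array. Retnlg, which was not called, was likewise above background on 3 TGC3 arrays and 1 TG array. S100a8, S100a9 and Retnlg thus passed the filter only through TGC3, where they are high, so that the neutrophil sum is no test of a difference. Mpo, above background on all 6 arrays, overlapped between the groups and was not called (change 0.51, limma, adjusted p = 0.0873). Macrophage markers summed to 1.22 to 3.32 in TGC3 and 0.783 to 0.957 in TG, with 3 of 6 called higher and C1qa and C1qc above background on no array. B cell markers summed to 5.43 to 6.17 in TGC3 and 5.32 to 6.56 in TG, with 3 of 4 called higher and Pax5 on no array. Of these 3, Ms4a1 passed the filter only through TGC3 (3 TGC3 and 0 TG arrays above background). Dendritic cell markers summed to 14.3 to 23.7 in TGC3 and 18.4 to 20.9 in TG, with 2 of 4 called higher. Of CD4+ T cell markers 0 of 2 tested were called, and of cholangiocyte and of endothelial and stellate cell markers 1 of 2 and 1 of 3 were called higher. The part of these markers, of the cell cycle genes and of the trend with signal in the members' changes was not tested.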

How the data were processed

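Cy3-labelled RNA was read on 6 one-colour Agilent arrays, 3 TGC3 and 3 TG, with groups taken from the labelled genotype. The authors' scanner software was Feature Extraction 10.7.3.1 per the file headers and 10.7.1.1 per the submitters' processing notes. Per the file headers, the authors' processed intensity had the spot background subtracted and a surface trend removed within each array, with no scaling between arrays. The deposited matrix is on a log2 scale, with medians of 5.58 and a correlation with the log2 processed signal of at least 0.9993 on each array, and served as an alternative; what else the authors did to it is not given in the sources used here.

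Of 45018 spots, 43379 were not controls. Spots of a probe were averaged, and 11 probes with outlier spots were left out. From each log2 processed signal the 75th percentile of its array was subtracted (561 to 623 intensity units), so that a scaled value of 0 is that percentile. Between 58.9% and 63.9% of an array's probes passed the software's well above background call, which limits what can be measured in place of a depth. A probe was kept where it passed that call on 3 or more of the 6 arrays (25125 probes), and each gene name of the files was read by its brightest kept probe. Levels of different probes are not comparable. TGC3 was compared with TG by limma 3.58.1 in R 4.3.3 (lmFit and eBayes, two-sided), with Benjamini-Hochberg adjustment over all genes, or over all kept probes where a probe is given. The procedure was tested on simulated data. Figures used matplotlib 3.10.9.

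The members and all gene lists were chosen with earlier results of these data known, so that no count over them is independent support. Named genes are all members, up to 4 called genes of each list with the largest change, and Cxcr3, Cd8a, Cd8b1, Cd3e and Mki67 as checks; others are named only in lists of markers. A few of the genes this rule takes are left unreported. Positions of probes are given in mm9, as in the files, and those of promoters in GRCm38.p6, matched by symbol. Alternatives covered scaling, background correction, filters, choice of probe, the variance model, a block for the replicate number, and fits without 1 array.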

Additional observations from a re-analysis of the deposited data

How the results depend on the processing

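Of 652 values of single members under the alternatives, 542 kept their direction and their side of the threshold, 38 passed it newly, 18 lost it and 54 changed sign. Centring on the median gave 1808 genes higher and 4763 lower, with 11 sterol, 3 fatty acid and 3 regulator members lower and medians of -0.28 (sterol) and -0.29 (fatty acid), and turned Acat2 to -0.006 and Acly to -0.141; the shift of all genes by -0.184 is part of it. Normexp on backgrounds as deposited, with 7 aberrant ones on TG 3, gave 0 genes higher and 1 lower in limma (506 at an unadjusted p under 0.05), 0 sterol and 0 fatty acid members lower, and medians of 0.08 (sterol), 0.17 (fatty acid) and 0.25 (regulators). Its single changes turned to 0.114 (Hmgcs1), -0.307 (Acat2), 0.276 (Pmvk), 0.088 (Idi1), 0.12 (Fdps), 0.037 (Fdft1), 0.074 (Sqle), 0.263 (Ebp), 0.189 (Sc5d), 0.222 (Dhcr7), 0.116 (Stard4), 0.091 (Acss2), 0.242 (Fasn), 0.249 (Elovl1), 0.283 (Elovl5), -0.753 (Fads2), 0.268 (Scd2), 0.251 (Srebf1), 0.283 (Scap) and 0.022 (Insig2), and outside the members to 0.258 (Cd8a), 0.335 (Cd8b1), 0.123 (Cd3e), 0.078 (Sec24c), 0.164 (Npc2), -0.697 (Scd3), -0.778 (Ptpla), -0.285 (Dgat2) and 0.156 (Acadvl). With those backgrounds replaced by the array's median, 1 sterol member was higher (Nsdhl) and Pmvk turned to 0.001, while Mvd, Tm7sf2 and Elovl6 were lower as in the main fit. Pmvk turned to 0.033 with quantile normalization and with the deposited values, and cyclic loess turned Pmvk, Fdps, Fdft1 and Sqle to 0.044, 0.011, 0.013 and 0.014, and Cd8b1 to 0.016. No filter left 578 genes and 1 sterol member lower. With probes above the median signal alone, 873 genes and 1 sterol member were higher and 2 fatty acid members lower. The mean of a gene's probes gave 4 sterol and 2 fatty acid members lower and turned Fdps (0.043), Acss2 (0.05) and Srebf2 (-0.087). The most variable probe gave 2 fatty acid members lower and a sterol median of -0.20, and turned Fdps (0.118), Nsdhl (-0.211), Acss2 (0.357) and Acaca (0.273). The trend and robust settings gave 1 sterol member higher, 2 fatty acid members and 1 regulator lower. Array weights gave 2410 genes lower, 1 sterol member higher and 2 fatty acid members lower, and turned Mvk, Sqle and Fads1 to 0.011, 0.017 and 0.012. With the replicate number as a block, 1807 genes were higher and 556 lower, with 0 sterol and 0 fatty acid members lower. The labels do not say whether the numbers pair the samples. Same-numbered deviations from the group means correlated at -0.003, -0.076 and -0.099, and with 3 arrays in a group these values cannot decide it. A slide block could not be run, since each slide held 1 group. The cause of these differences was not tested.

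Leaving out 1 array gave 1771 (without TG 2) to 2367 genes higher and 572 to 1505 lower (738 when TGC3 1 was left out and 755 when TGC3 3 was, 572 for TG 1, 611 for TG 2 and 815 for TG 3), 0 to 2 sterol members lower and 0 to 1 higher, and 0 to 2 fatty acid members lower. Changes ran between -0.412 and 0.006 for Acss2, -0.232 and 0.011 for Acaca, -0.096 and 0.054 for Fads1, -0.073 and 0.019 for Fdps, -0.086 and 0.003 for Mvk, -0.054 and 0.035 for Pmvk, -0.143 and 0.051 for Sqle, and -0.046 and 0.005 for Fdft1.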
